A study of Homo sapiens with 6 samples.

Results

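Probes for miR-21, for the pair miR-221 and miR-222 and for miR-96 and miR-182 of the miR-183 cluster were examined in Hep3B, an established line of human hepatocellular carcinoma cells. They were taken by name from the array table, as guide-strand probes of 7 miRNAs widely described as oncogenic, and 5 probes were found among 581 with values. The other two names, miR-183 and miR-224, were not analysed here. The 3 HDAC6 arrays held RNA from cells transfected with the plasmid pcDNA3.1 carrying HDAC6, a mainly cytoplasmic deacetylase, and the 3 Mock arrays RNA from cells given the empty plasmid. Both groups went through lipofectamine transfection. The level of HDAC6 was not checked here, and the time of harvest was not given in the sources used here. Per the labels, 3 RNA extractions per condition were mixed into a pool, so the arrays of a group may be repeated hybridizations of that pool, and p-values reflect array-to-array spread that may be technical only. By its title, the series asked which miRNAs are regulated by HDAC6.

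A miRNA is cut from a hairpin transcript, loaded into an Argonaute protein, and pairs through its seed, bases 2 to 8 from the 5′ end, with messenger RNAs that it represses. MiR-21 is widely raised in carcinomas and represses the tumour suppressor PDCD4. MiR-221 and miR-222 come from a common transcript and repress the cell cycle inhibitor CDKN1B. MiR-96 and miR-182 belong to a cluster with miR-183, best known from sensory organs, and both repress FOXO1.

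The mature sequences below show which probes could share targets, because the seeds, in capitals, sort the miRNAs into groups. They are RefSeq sequences (GRCh38.p14), and all 5 members matched. The probe names give no arm, so the arm usually meant by the name without an asterisk is shown. The probes' own sequences were not used here.
miR-21: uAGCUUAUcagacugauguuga
miR-590-5p: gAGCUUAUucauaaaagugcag
miR-221: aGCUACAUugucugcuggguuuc
miR-222: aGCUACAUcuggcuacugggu
miR-96: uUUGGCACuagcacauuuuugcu
miR-182: uUUGGCAAugguagaacucacacu

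MiR-221 and miR-222 had the same seed, were identical over their first 8 bases, and matched at 11 of 21 positions counted from the 5′ end. MiR-96 and miR-182 shared their first 7 bases and matched at 12 of 23 positions, but their seeds differed in the last base. MiR-21 shared its seed with miR-590-5p, which was also on the array. No RefSeq mature miRNA of another name shared a run of more than 9 bases with any of the 5. Members of a pair could still bind each other's probes to some extent, which was not tested.

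In the genome, miR-21 (chr17:59841273-59841294, plus strand) lies within VMP1, a protein-coding gene. MiR-221 (chrX:45746180-45746202) and miR-222 (chrX:45747036-45747056) lie on the minus strand within the non-coding host gene MIR222HG, with 748 bases between their hairpins. MiR-96 (chr7:129774739-129774761) and miR-182 (chr7:129770447-129770470) also lie on the minus strand, with 4199 bases between their hairpins.

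All 5 probes were lower in HDAC6 than in Mock and passed the test (limma, Benjamini-Hochberg adjusted p under 0.05 over 581 probes), whereas 24.4% of all probes were called lower and 21.3% higher (45.8% in either direction). Among the 386 guide-strand probes, 29.5% were called lower. Such falls were not particular to the members. On the 2 lists of other miRNAs described below, 83.3% of 18 probes and 57.9% of 19 were called lower, and 0 and 3 higher. Whether this share differs between kinds of guide-strand probe was not tested. The members' log2 fold changes ran from -1.53 for miR-182 to -0.84 for miR-221, with a median of -1.12, against a median of -0.09 over all probes and -0.21 over guide-strand probes. In 4 of the 5, every HDAC6 array lay below every Mock array, which held for 29.8% of all probes. At an adjusted p under 0.01, miR-96 and miR-182 passed, and 10.7% of all probes were called lower. None of the 5 stood at the end of the distribution: miR-182 was the 31st lowest log2 fold change of 581, and miR-221 ranked at 140. Because the arrays were quantile normalized, each change is relative to the other probes, and a shift of all miRNAs together would not show.

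**Figure D1:**
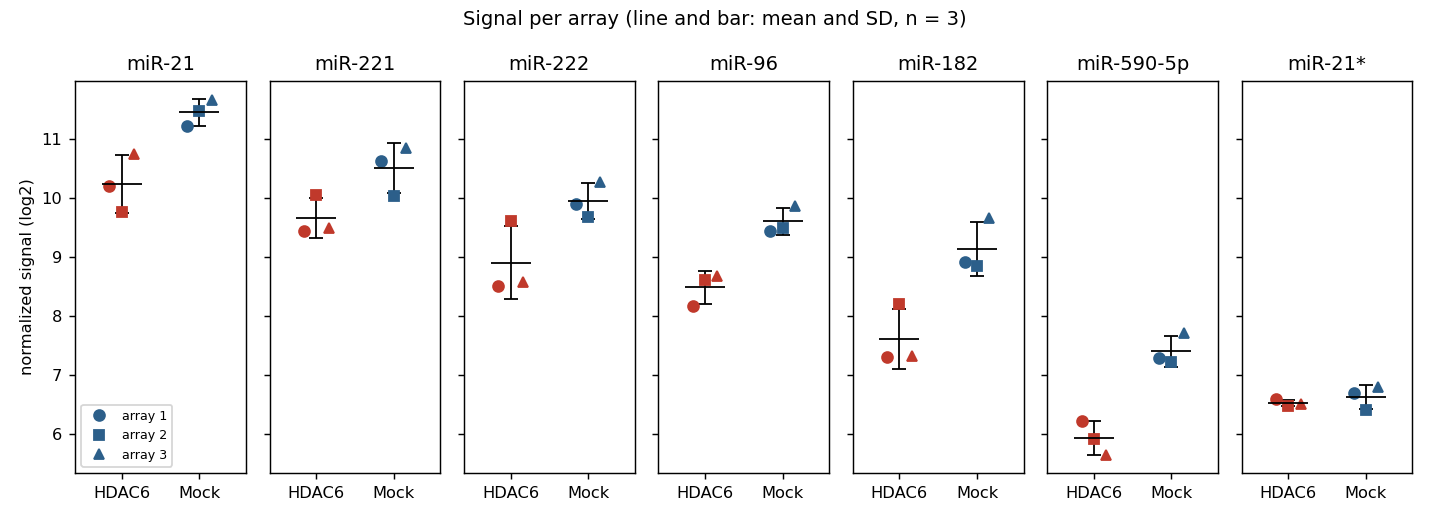
Normalized signal (log2, vertical axis) of the 5 members, of miR-590-5p and of the star strand miR-21* on each HDAC6 array (red) and Mock array (blue), with mean and SD (n = 3). HDAC6 arrays lie below Mock arrays for every panel except miR-221, where they overlap by 0.02, and miR-21*, where they overlap throughout.

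MiR-21, the repressor of PDCD4, had log2 signals of 10.21, 9.75 and 10.74 on the HDAC6 arrays, against 11.21, 11.48 and 11.66 on the Mock arrays. The groups did not overlap, and the lowest Mock array stood 0.47 above the highest HDAC6 array. The means were 10.23 ± 0.49 in HDAC6 and 11.45 ± 0.23 in Mock (SD, n = 3), which is 2.33-fold lower in HDAC6 (log2 fold change -1.22, SE 0.282, 95% interval -1.87 to -0.56, limma, adjusted p = 0.0113). It was the brightest of the 5 probes in both groups, but signals of different probes do not rank the amounts of their miRNAs. By position within the array, it stood on average at the 89.4th percentile in HDAC6 and at the 96.4th in Mock.

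The star strand miR-21*, the arm that is mostly discarded, had log2 signals of 6.58, 6.48 and 6.51 on the HDAC6 arrays, against 6.70, 6.40 and 6.79 on the Mock arrays. These overlapped, and the probe did not pass (log2 fold change -0.10, SE 0.191, 95% interval -0.55 to 0.34, limma, adjusted p = 0.686). Its signal was at the 27.7th percentile of the array on average in HDAC6 and at the 24.8th in Mock, and how far it stood above background is unknown. Within each array, miR-21 exceeded miR-21* by 3.71 ± 0.48 in HDAC6 and 4.82 ± 0.29 in Mock on the log2 scale (SD, n = 3). The change of -1.11 (SE 0.324) gave p = 0.1 in an exact two-sided permutation test, which cannot go lower with 3 arrays a group, and 0.2 adjusted over the pair of comparisons made with miR-21's relatives.

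MiR-590-5p, which shares the miR-21 seed but is transcribed from within EIF4H on chromosome 7, also fell. Its log2 signals were 6.22, 5.92 and 5.65 on the HDAC6 arrays, against 7.29, 7.22 and 7.70 on the Mock arrays. The groups were separated by 1.00, and the signal was 2.78-fold lower in HDAC6 (log2 fold change -1.47, SE 0.234, limma, adjusted p = 0.0035). Its signal was at the 10.3rd percentile of the array on average in HDAC6 and at the 46.8th in Mock. Its distance from background is unknown, and if it was at background in HDAC6 this fold is a lower limit. The within-array difference between miR-21 and miR-590-5p was 4.31 ± 0.69 in HDAC6 and 4.05 ± 0.19 in Mock (SD, n = 3), and unequal change was not detectable, within the same limit (change 0.26, SE 0.41, exact permutation p = 0.8, adjusted 0.8).

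MiR-221, which represses CDKN1B, had log2 signals of 9.44, 10.05 and 9.50 on the HDAC6 arrays, against 10.62, 10.03 and 10.85 on the Mock arrays. The groups overlapped, since the highest HDAC6 array, the second, lay 0.02 above the lowest Mock array, also the second. The means were 9.66 ± 0.34 in HDAC6 and 10.50 ± 0.43 in Mock (SD, n = 3), which is 1.79-fold lower in HDAC6 (log2 fold change -0.84, SE 0.282, 95% interval -1.49 to -0.18, limma, adjusted p = 0.041).

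MiR-222, with the same seed and host transcript, had log2 signals of 8.51, 9.61 and 8.57 on the HDAC6 arrays, against 9.89, 9.68 and 10.27 on the Mock arrays. Here the groups were separated by 0.07, and HDAC6 array 2 again stood closest to Mock. The means were 8.90 ± 0.62 in HDAC6 and 9.95 ± 0.30 in Mock (SD, n = 3), which is 2.07-fold lower in HDAC6 (log2 fold change -1.05, SE 0.332, 95% interval -1.82 to -0.28, limma, adjusted p = 0.0326).

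The calls for miR-221 and miR-222 were the least stable of the 5. Both were lost without HDAC6 array 1 or 3 or without Mock array 1 or 3, with adjusted p-values from 0.107 to 0.128 for miR-221 and from 0.0789 to 0.109 for miR-222 (limma). Both were also lost when the arrays were centred on 7 small RNA control probes (0.11 and 0.068). Without HDAC6 array 2 the log2 fold changes were -1.03 for miR-221 and -1.41 for miR-222, and both passed (0.0278 and 0.0086).

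MiR-96, a repressor of FOXO1, had log2 signals of 8.16, 8.61 and 8.67 on the HDAC6 arrays, against 9.44, 9.49 and 9.87 on the Mock arrays. The groups were separated by 0.78, the widest gap among the 5. The means were 8.48 ± 0.28 in HDAC6 and 9.60 ± 0.23 in Mock (SD, n = 3), which is 2.17-fold lower in HDAC6 (log2 fold change -1.12, SE 0.226, 95% interval -1.65 to -0.60, limma, adjusted p = 0.0068). Of the 5, it had the smallest adjusted p.

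MiR-182, its cluster neighbour, had log2 signals of 7.30, 8.20 and 7.33 on the HDAC6 arrays, against 8.91, 8.84 and 9.66 on the Mock arrays. The groups were separated by 0.64, with HDAC6 array 2 again the highest of its group and Mock array 3 well above the other Mock arrays. The means were 7.61 ± 0.51 in HDAC6 and 9.14 ± 0.45 in Mock (SD, n = 3), which is 2.89-fold lower in HDAC6 (log2 fold change -1.53, SE 0.331, 95% interval -2.30 to -0.76, limma, adjusted p = 0.0088). Its position within the array was at the 51.6th percentile on average in HDAC6 and at the 77.9th in Mock, the largest shift in position of the 5.

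**Figure D2:**
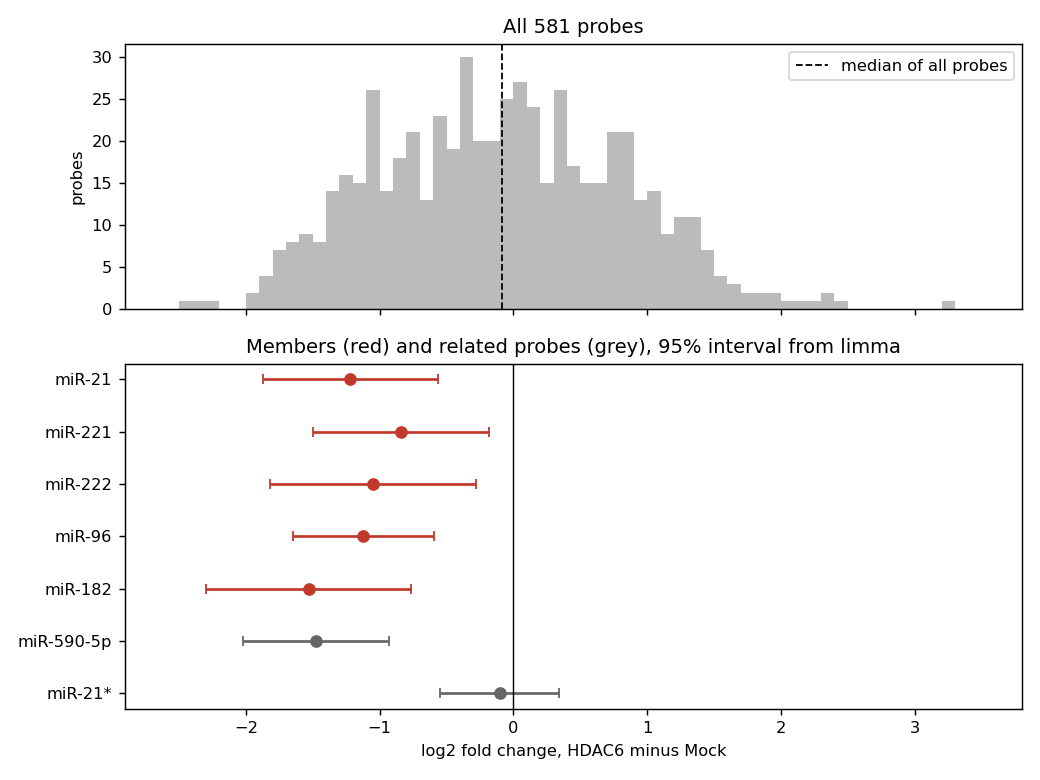
Log2 fold change, HDAC6 minus Mock (horizontal axis), as a histogram over all 581 probes (top, median -0.09 dashed) and for the members (red) and 2 related probes (grey) with 95% limma intervals (bottom). The 5 members lie between -1.53 and -0.84 with intervals below 0, and the interval of miR-21* spans 0.

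The members did not vary alike from array to array. HDAC6 array 2 was the highest HDAC6 array for 3 of the 5, miR-221, miR-222 and miR-182, at 0.39, 0.71 and 0.59 above their HDAC6 means on the log2 scale. For miR-21 the same array was the lowest, at -0.48 from the mean. The 7 small RNA control probes as a set did not follow this, with mean log2 signals of 9.132, 9.001 and 9.255 on the HDAC6 arrays and the lowest on array 2. The control probe PC-U44, however, was highest on array 2, at 0.79 above its HDAC6 mean, with -0.11 and -0.68 on arrays 1 and 3. It is the only control probe shown singly and does not stand for the 7. Whether the array itself played a part was not tested. Among Mock arrays, array 3 was the highest for all 5 members, by 0.21 to 0.52 above their Mock means.

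To ask whether members changed by unequal amounts, differences were formed within each array for 10 pairs. For the co-transcribed pair, miR-221 exceeded miR-222 by 0.93, 0.44 and 0.92 on the HDAC6 arrays, against 0.73, 0.34 and 0.58 on the Mock arrays. These overlapped, with a change of 0.21 (SE 0.198, exact two-sided permutation p = 0.3, adjusted over 10 pairs 0.75). MiR-96 exceeded miR-182 by 0.87, 0.41 and 1.34 on the HDAC6 arrays, against 0.53, 0.65 and 0.21 on the Mock arrays. These overlapped too, with a change of 0.41 (SE 0.299, exact permutation p = 0.3, adjusted 0.75).

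The HDAC6 and Mock arrays were separated for 2 of the 10 pairs, both with miR-182. MiR-221 exceeded miR-182 by 2.14, 1.85 and 2.17 on the HDAC6 arrays, against 1.71, 1.19 and 1.19 on the Mock arrays, a change of 0.69 (SE 0.202). MiR-222 exceeded miR-182 by 1.21, 1.41 and 1.25 on the HDAC6 arrays, against 0.98, 0.84 and 0.61 on the Mock arrays, a change of 0.48 (SE 0.123). Both gave p = 0.1 in the exact permutation test, its lower limit here, and 0.5 adjusted over the 10 pairs. Because that limit lies above 0.05, no pair could pass whatever its values. The test therefore cannot decide whether members changed by unequal amounts, and the array values and changes of these 2 pairs are given as description. With an offset added to the linear signals these changes were 0.41 and 0.27.

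**Figure D3:**
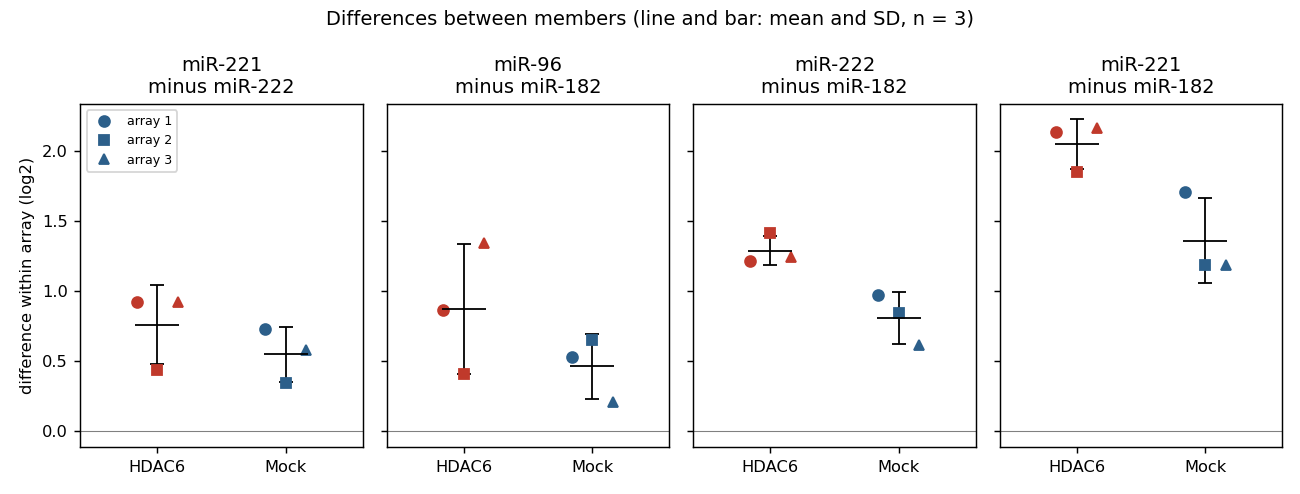
Difference between 2 members within the same array (log2, vertical axis) on the HDAC6 arrays (red) and Mock arrays (blue), with mean and SD (n = 3). The groups overlap for miR-221 minus miR-222 and for miR-96 minus miR-182, and are separated for both pairs that set miR-222 or miR-221 against miR-182.

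Likeness of pattern was measured as the root mean square difference over the 6 arrays after each probe was centred on its own mean, across 385 other guide-strand probes. Closest to miR-21 was miR-18a, of the miR-17/92 cluster, at 0.079 on the log2 scale, followed by miR-200b (0.12) and miR-19b (0.13). Closest to miR-221 were miR-125b (0.13), miR-151-5p (0.14) and miR-423-3p (0.14). Closest to miR-222 were miR-365 (0.10), miR-27a (0.17) and miR-151-3p (0.21). MiR-96 lay closest to miR-22 (0.078), miR-23b (0.11) and miR-130b (0.12). MiR-182 lay closest to the probe that the file names mir-3245p (0.15), miR-25 (0.18) and miR-29a (0.19).

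Genomic partners were not each other's nearest probes. MiR-221 was the 7th closest probe to miR-222, and miR-222 the 21st closest to miR-221, at a distance of 0.22. MiR-182 was the 83rd closest to miR-96, and miR-96 the 29th closest to miR-182, at 0.36. The median distance to all ranked probes lay between 0.62 for miR-221 and 0.87 for miR-182.

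Other miRNAs widely described as oncogenic also fell. Of 18 probes for 17 such miRNAs, 15 fell and 0 rose (limma, adjusted p under 0.05 over all probes), or 83.3%, with a median log2 fold change of -1.04. By the same test, 24.4% of all probes and 29.5% of guide-strand probes were called lower. On the list of liver tumour suppressors below the share was 57.9%, so falling was not particular to miRNAs described as oncogenic. The 18 probes are not independent, since miR-151-3p and miR-151-5p are arms of the same hairpin. The smallest adjusted p-values were those of miR-301a at -1.83 (SE 0.241), miR-25 at -1.37 (SE 0.258), miR-19b at -1.38 (SE 0.262) and miR-93 at -1.20 (SE 0.248), between 0.0027 and 0.0075. The 3 that did not pass were miR-106b at -0.75, miR-210 at -0.68 and miR-373 at -0.13. The count of 15 became 7 without HDAC6 array 1 and 8 with control-probe centring.

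Probes for miRNAs known as tumour suppressors in liver, with either arm counted, moved both ways. Of 19 probes, 11 fell (57.9%) and 3 rose, and 5 did not pass, with a median of -1.24. The shares over all probes were 24.4% lower and 21.3% higher. The list took either arm of a miRNA, and the 3 that rose were miR-125a-3p, miR-139-3p and miR-214. For miR-125a and miR-139 the probe that rose was for the -3p arm, which may not be the arm known as a suppressor. MiR-125a-3p rose 4.17-fold, with log2 means of 9.79 ± 0.15 in HDAC6 and 7.72 ± 0.27 in Mock (SD, n = 3, limma, adjusted p = 0.0015). In contrast, the miR-125a-5p probe, for the opposite arm, had a log2 fold change of -1.80 (SE 0.656) and did not pass (adjusted p = 0.0558). MiR-29b and miR-29c, which repress collagen genes, fell by 1.93 and 1.63 on the log2 scale, and the p53-induced miR-34a fell by 1.24 (adjusted p from 0.0027 to 0.00297). No difference between the members and either list was tested.

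Across probes, pairs of arrays correlated at r = 0.937 to 0.959 within HDAC6, 0.922 to 0.952 within Mock and 0.779 to 0.848 between groups. The counts of cell type probes that follow stand beside 24.4% of all probes called lower and 21.3% called higher. Of 8 probes for hepatocyte miRNAs, 4 fell and 1 rose. Their summed linear signal was 4498 to 7605 in HDAC6 and 12369 to 16692 in Mock, led by miR-192, while miR-122, the main hepatocyte miRNA, was at 7.82 ± 0.27 in HDAC6 and 7.42 ± 0.20 in Mock (log2, SD, n = 3) and did not pass (limma, adjusted p = 0.166). Of 4 probes for blood cell miRNAs, 1 fell and 1 rose, with a median log2 fold change of 0.14. Their sums were 3017 to 4147 in HDAC6 and 5573 to 8065 in Mock, led by miR-146a, which fell by 1.53 on the log2 scale. Of 4 for fibroblast and smooth muscle miRNAs, 1 rose, with a median log2 fold change of -0.02. Their sums were 1062 to 1504 in HDAC6 and 718 to 772 in Mock, led by miR-214, which rose by 1.24 on the log2 scale. MiR-145 was uneven on the HDAC6 arrays, at 8.96, 6.63 and 6.43. MiR-143 and miR-199a-5p had log2 fold changes of -0.38 and -0.62 and did not pass. Of 4 for neural miRNAs, 2 fell and 1 rose, with a median log2 fold change of -0.20. Their sums were 1299 to 1351 in HDAC6 and 1165 to 1221 in Mock. The part of these shifts in the members' falls was not tested. Normalized log2 values hold no zeros, and without a detection flag absence cannot be read from them. Endothelial and striated muscle markers were not analysed here.

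**Figure D4:**
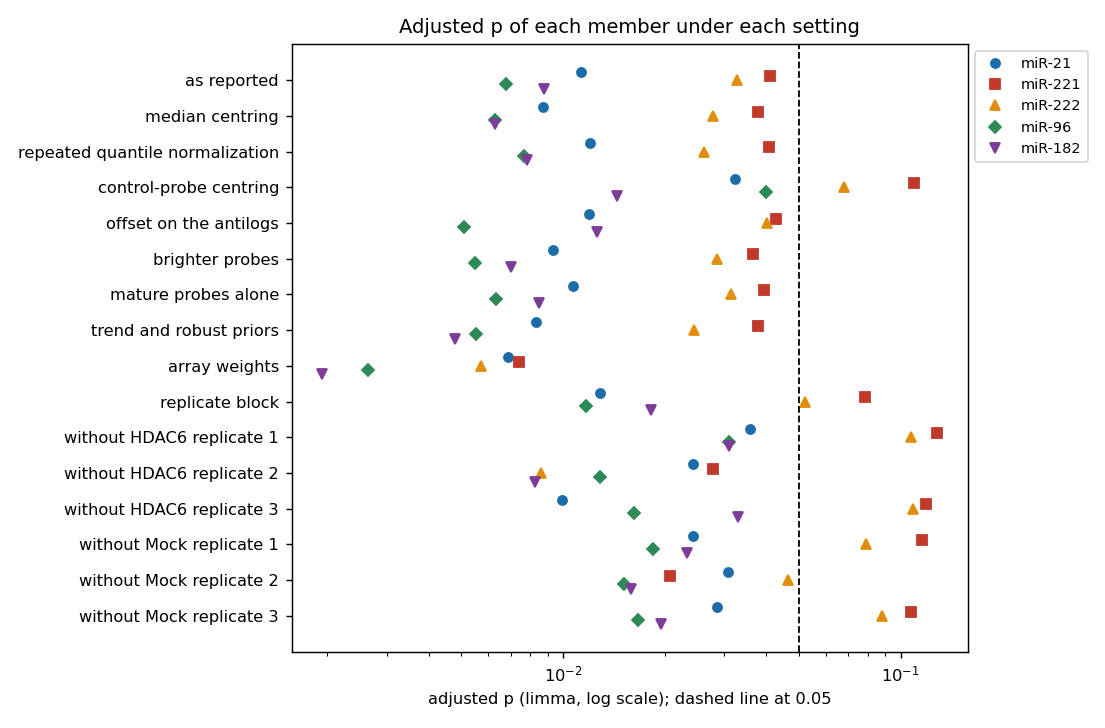
Adjusted p (limma, log axis, threshold 0.05 dashed) of the 5 members as reported and under 15 other settings. MiR-21, miR-96 and miR-182 stay left of the threshold in all 15, while miR-221 and miR-222 each cross it in 6.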

How the data were processed

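Biotin-labelled RNA was hybridized to GenoExplorer miRNA chips, and per the labels' protocols the authors read Axon scans with GenePix Pro 5.0, removed poor spots by eye, averaged 3 spots per probe, and applied quantile normalization and a class-specific filter in GenePlex 3.0. The deposited values are log2 signals, a scale read from the values. Neither background correction nor the filter's rule was given in the sources used here. Precision is limited by the number of arrays. Of 582 rows, 1 was blank. HDAC6 was compared with Mock with lmFit and eBayes of limma (version 3.58.1, R 4.3.3; no covariate; tested on simulated data), adjusted by Benjamini-Hochberg over 581 probes, control probes included. Pair differences used exact permutation tests (scipy 1.17.1). Members, lists, tests and alternatives were chosen with earlier results of these data known. Named miRNAs were the members, their star strand and seed relative, 3 nearest patterns each, and the 4 smallest adjusted p-values per list. Cell type markers, and list probes that rose or did not pass, are named besides. The comparisons of miR-21 with miR-21* and miR-590-5p were added after values were seen. Precursors of the members were not analysed here, so the planned comparison of mature with precursor probes was not made. Replicate numbers were not taken as pairs: deviations of same-numbered arrays correlated at 0.16, -0.09 and 0.19.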

Additional observations from a re-analysis of the deposited data

How the results depend on the processing

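All 5 members kept a negative log2 fold change under each of 15 alternatives, and miR-21, miR-96 and miR-182 passed in each. MiR-221 and miR-222 lost their calls with control-probe centring (-0.76 and -0.97) and in the fit with a replicate block (-0.84 and -1.05, adjusted p = 0.0783 and 0.0521), although the numbers did not pair the arrays. The block gave 264 calls over all probes, against 266 without it. Leaving out 1 array gave -1.08 to -0.66 for miR-221 and -1.41 to -0.86 for miR-222. The 5 member calls became 3 with control-probe centring, 3 with the replicate block, 3 to 5 without 1 array, and 2 at an adjusted p under 0.01. Over all probes, control-probe centring gave 166 calls, 85 lower and 81 higher, against 142 lower and 124 higher as reported. Without 1 array 93 to 139 were lower. The oncogenic list had 8 lower with control-probe centring and 7 to 13 without 1 array. Of 80 pair differences under alternatives, 6 changed sign, and with the offset miR-221 and miR-222 minus miR-182 gave 0.41 and 0.27. The cause was not tested. Signal over background is unknown, which limits what the dimmer probes, miR-21* and miR-590-5p, can show.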
